A study of Mus musculus with 12 samples.

Results

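The genes of the synaptic vesicle and of its release machinery were followed in the mouse hippocampus after status epilepticus. The group holds 38 genes chosen by symbol: calcium sensors, synapsins, vesicle membrane proteins, SNARE proteins and their regulators, Rab3 GTPases, active zone and priming factors, the vesicular glutamate transporters Slc17a6 and Slc17a7, and the endocytosis genes Dnm1 and Amph. Of these, 36 had a probe set of their own on the array (81 probe sets in all), and all 36 were among the 13867 genes tested. The probe annotation gave no probe set for Sv2c. Unc13a shared its probe set with Colgalt1, so no value is given for Sv2c or Unc13a. One probe set stood for each gene, the one with the highest mean, and levels of different genes are not compared because probe sets differ in brightness.

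A synaptic vesicle is filled with transmitter by a vesicular transporter, docks at the active zone through Rab3 and RIM proteins, and is primed for fusion by proteins such as Munc13 and CAPS. Fusion is driven by the SNARE proteins on vesicle and plasma membrane and is set off by calcium binding to synaptotagmin, after which NSF and the SNAP proteins take the SNARE complex apart and dynamin and amphiphysin recover the membrane. In the hippocampus this machinery serves the glutamatergic pathway from dentate granule cells through CA3 to CA1, and the inhibitory terminals of interneurons.

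Mice were injected in the amygdala with kainic acid (KA), a glutamate analogue that activates kainate receptors and sets off seizures, at 0.3 µg in 0.2 µl of phosphate-buffered saline, or with 0.2 µl of that vehicle alone. Lorazepam, a benzodiazepine, followed at 6 mg/kg 40 min after KA, and the labels do not say whether controls were given it. There were 4 groups of 3 arrays each, control 8 h, KA 8 h, control 14 d and KA 14 d, all of hippocampus from the injected side. Strain, age and sex are not in the labels used here, nor is it said whether the arrays of a group are separate animals. The p-values therefore measure the spread between these arrays, which may be technical. A second time entry for the arrays titled 8 h reads 11 to 13 h for KA and 8 to 10 h for control. The titles were used, and if the other entry were right, KA and hours of delay cannot be told apart in that comparison.

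Values were log2 intensities, with array medians between 4.90 and 4.95 and correlations within groups of 0.989 to 0.997. Fos and Arc, immediate early genes of active neurons, checked the KA label at 8 h. Fos read 9.65 to 10.3 on the KA 8 h arrays and 4.07 to 4.83 on their controls, and Arc 9.26 to 9.59 against 5.50 to 6.04. At 14 d neither was called. Their summed level was then 9.58 on KA replicate 3, against 7.94 and 7.97 on the other KA arrays and 7.68 to 7.96 on the controls. Xist, which is transcribed in female cells, read 7.39 to 8.71 on the 3 KA 8 h arrays and 4.19 to 4.67 on the other 9. The Y-linked gene Eif2s3y was lower on those 3 arrays (5.57 to 6.83) than on the other 9 (7.46 to 8.09), and Kdm5d, also Y-linked, read 5.07 to 6.10 there against 6.43 to 6.95. KA and the sex of the animals therefore cannot be told apart at 8 h. On those 3 arrays Eif2s3y and Kdm5d still read above the mean of the array's nonspecific probe sets (4.04 to 4.38). Of the release genes, Syn1 and Syp are X-linked, and an effect of sex on them was not tested. Uty, a further Y-linked gene, overlapped, with 4.14 to 4.61 on those 3 arrays and 4.35 to 4.82 on the other 9. The summed level of 10 neuronal markers was 13.00 to 13.11 on the KA 8 h arrays and 13.02 to 13.11 on their controls, and all 36 release genes lay above the mean of the array's nonspecific probe sets on all 12 arrays.

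At 8 h after KA, 1 release gene rose and 5 fell. Syt4, a synaptotagmin whose transcript is known to be induced by neuronal activity, rose 2.55-fold. The genes that fell were Synpr, Cadps, Cadps2, Rab3a and Syt11, by 1.20-fold to 1.66-fold. A gene was called at a Benjamini-Hochberg adjusted p under 0.05 over all genes tested in limma. By that rule 17.5% of all genes were called at 8 h (7.91% rose and 9.55% fell), and the 6 of 36 release genes called, 16.7%, are near that background. The median log2 change of the 36 was -0.18, against -0.02 for all genes, and 29 of the 36 changes were below 0.

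**Figure D1:**
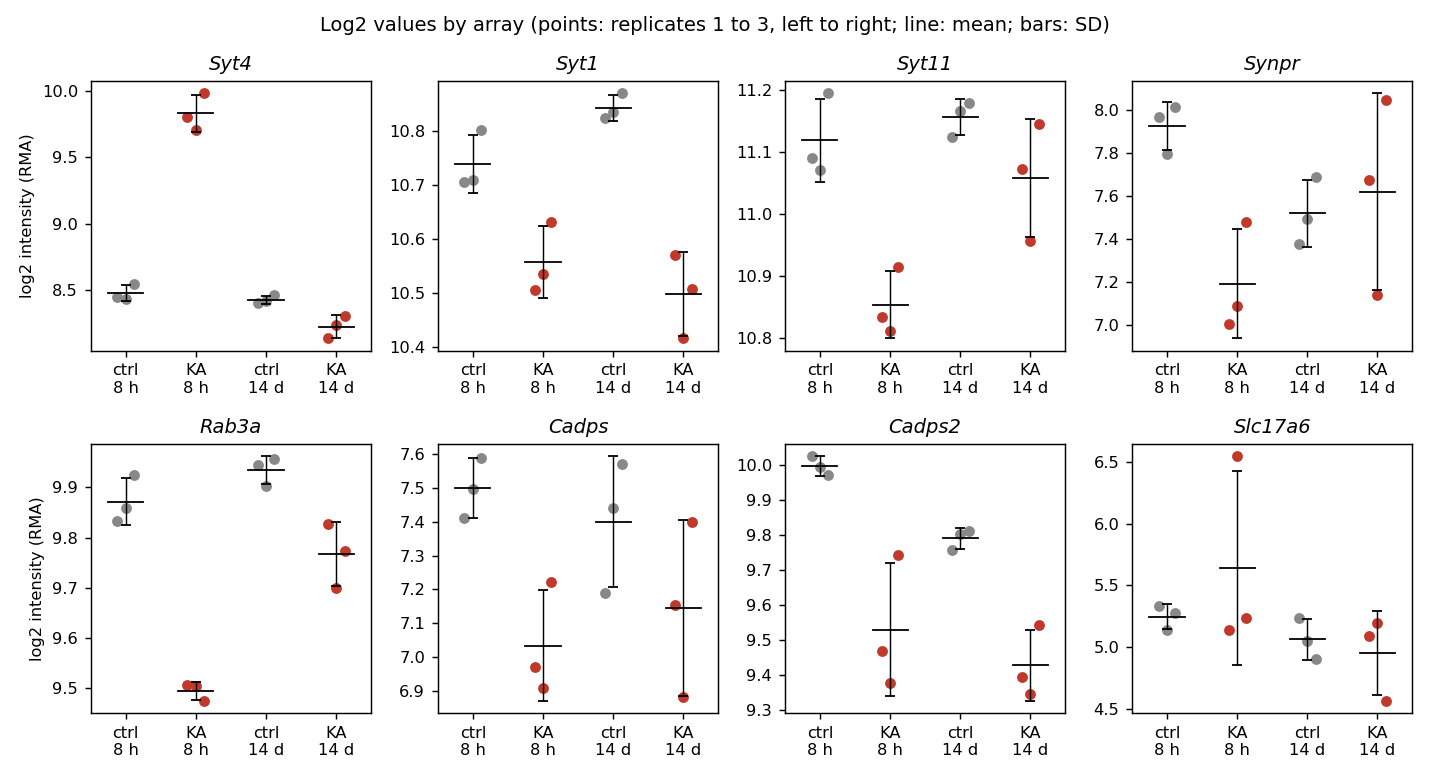
Log2 intensity (y axis, a separate scale for each gene) on each array for 8 release genes, with grey points for control arrays, red points for KA arrays, a line at the group mean and bars for the SD (n = 3). Syt4 reads 9.71 to 9.98 on the KA 8 h arrays and at most 8.54 on any other, while Slc17a6 is high on 1 KA 8 h array.

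The group of calcium sensors and their relatives holds 3 synaptotagmins, of which 1 rose, 1 fell and 1 did not pass at 8 h. Syt4 read 8.45, 8.44 and 8.54 on the 8 h controls and 9.80, 9.71 and 9.98 on the KA 8 h arrays. All KA values lay above all controls, by more than 1 log2 unit. The change was 1.35 ± 0.09 (log2, SE, n = 3 against 3, adjusted p = 4.85e-08 in limma), and the second Syt4 probe set gave 1.29. Syt11, a synaptotagmin that does not bind calcium and is known for a part in membrane recovery, read 11.09, 11.07 and 11.20 on the controls against 10.83, 10.81 and 10.91. The groups did not overlap, and the fall was 1.20-fold (log2 change -0.27 ± 0.08, adjusted p = 0.0279). Its 5 probe sets all had the same sign. The Syt11 call was lost without control replicate 1 (adjusted p = 0.0553), 2 (0.0528) or 3 (0.120) and without KA replicate 1 (0.0817) or 2 (0.0793).

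Syt1, the calcium sensor of fast synchronous release, read 10.71, 10.71 and 10.80 on the 8 h controls and 10.50, 10.54 and 10.63 on the KA arrays. The groups did not overlap, but the log2 change of -0.18 ± 0.08 did not pass the test (adjusted p = 0.123). Doc2b, a high-affinity calcium sensor, read 5.78, 6.08 and 5.97 on the controls against 5.72, 5.39 and 5.39, and lay just outside the threshold (log2 change -0.44 ± 0.15, adjusted p = 0.0503). Rph3a, the Rab3 effector rabphilin, had a log2 change of -0.17 and did not pass.

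Of the 6 vesicle membrane genes tested, Synpr was the one called. It encodes synaptoporin, a relative of synaptophysin known for its abundance in the mossy fibre terminals of granule cells. Synpr read 7.96, 7.80 and 8.01 on the controls and 7.01, 7.09 and 7.48 on the KA arrays. No KA array reached the lowest control, and the log2 change of -0.73 ± 0.18 was the lowest of the 36 genes (1.66-fold, adjusted p = 0.00945). Without KA replicate 1 the adjusted p was 0.0510. The other 5 all had log2 changes below 0 without passing: -0.32 for Sv2b, -0.32 for Syngr3, -0.27 for Sv2a, -0.22 for Syngr1 and -0.11 for Syp. Sv2a encodes the vesicle glycoprotein bound by the antiseizure drug levetiracetam, and it read 9.55, 9.74 and 9.89 on the controls against 9.33, 9.50 and 9.53.

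Rab3a, the main vesicle-bound Rab3 GTPase of brain, fell with little spread. It read 9.83, 9.86 and 9.92 on the 8 h controls and 9.51, 9.50 and 9.47 on the KA arrays. The gap between the groups was wider than the range within either, and the log2 change was -0.38 ± 0.07 (1.30-fold, adjusted p = 0.00192). Of its relatives, Rab3b had a log2 change of -0.29 (adjusted p = 0.0943) and Rab3c one of 0.08, and neither passed. The 5 Rab3c probe sets disagreed in sign, between -0.19 and 0.13.

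In the active zone and priming group, the 2 CAPS genes fell by the same amount and the 4 scaffold genes did not pass. CAPS proteins prime dense-core and synaptic vesicles for fusion. Cadps (CAPS1) read 7.41, 7.50 and 7.59 on the controls against 6.97, 6.91 and 7.22 (log2 change -0.47 ± 0.13, adjusted p = 0.0213). Cadps2 (CAPS2) read 10.03, 9.99 and 9.97 against 9.47, 9.38 and 9.74 (log2 change -0.47 ± 0.09, adjusted p = 0.00270). For both genes every KA array lay below every control, and replicate 3 was the highest of the KA arrays. Cadps did not pass without control replicate 2 (adjusted p = 0.0589) or 3 (0.0840) or without KA replicate 1 (0.0767) or 2 (0.0819). Of the scaffolds, Pclo (piccolo) had a log2 change of -0.34 (adjusted p = 0.0706), with -0.21 and 0.13 on its other 2 probe sets. Rims1 had one of -0.10, Rims2 0.04 and Bsn (bassoon) 0.01. Dimmer Rims2 probe sets gave 0.27 and 0.17, and the first did not pass where all probe sets were tested (adjusted p = 0.103).

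None of the 10 SNARE genes and SNARE regulators was called at 8 h at an adjusted p under 0.05 in limma. Stx1a, the plasma membrane syntaxin of the release complex, came nearest by size, reading 7.77, 7.73 and 8.14 on the controls against 7.64, 7.40 and 7.67 (log2 change -0.31 ± 0.11, adjusted p = 0.0647). Cplx2, a complexin that clamps and assists SNARE complexes, read 9.77, 9.72 and 9.75 against 9.41, 9.46 and 9.63 (-0.25 ± 0.09, adjusted p = 0.0586). Both had groups that did not overlap. The SNARE partners of Stx1a had log2 changes of 0.01 (Snap25), -0.04 (Vamp2) and -0.14 (Vamp1). The second, dimmer Vamp1 probe set gave -0.26 and passed where all probe sets were tested (adjusted p = 0.0429). Nsf (-0.17), Napb (-0.21), Napa (-0.01), Cplx1 (-0.15) and Stxbp5 (0.08) did not pass either.

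The synapsins, phosphoproteins that tether vesicles in the reserve pool, had small log2 changes at 8 h. Syn1 read 9.63, 9.59 and 9.80 on the controls and 9.52, 9.49 and 9.72 on the KA arrays. These groups overlapped, with a log2 change of -0.09 ± 0.10 (adjusted p = 0.650), and Syn2 had one of -0.06. In the endocytosis pair, Dnm1, the neuronal dynamin that pinches vesicles off the membrane, read 10.91, 11.06 and 11.10 against 10.81, 10.78 and 10.85. Its groups did not overlap, but the log2 change of -0.21 ± 0.08 did not pass (adjusted p = 0.109). A second, dimmer Dnm1 probe set gave -0.29 and passed where all probe sets were tested (adjusted p = 0.0285). Amph (amphiphysin) had a log2 change of -0.20.

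The vesicular glutamate transporters were not called. Slc17a7, the transporter of most hippocampal excitatory terminals, read 9.24, 9.42 and 9.50 on the controls against 9.17, 9.17 and 9.27 (log2 change -0.18 ± 0.13, adjusted p = 0.428). Slc17a6, the transporter typical of thalamic and other subcortical neurons, read 5.33, 5.13 and 5.28 against 5.14, 6.55 and 5.23. A single array, KA replicate 2, carried the difference (0.39 ± 0.27, adjusted p = 0.391). That array also had the highest summed level of the 6 thalamus markers, 9.70, against 9.13 and 9.15 on the other two KA arrays and 9.40 to 9.50 on the controls. None of those 6 markers rose and 1 fell, all 6 were above background, and their part in the Slc17a6 value was not tested.

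**Figure D2:**
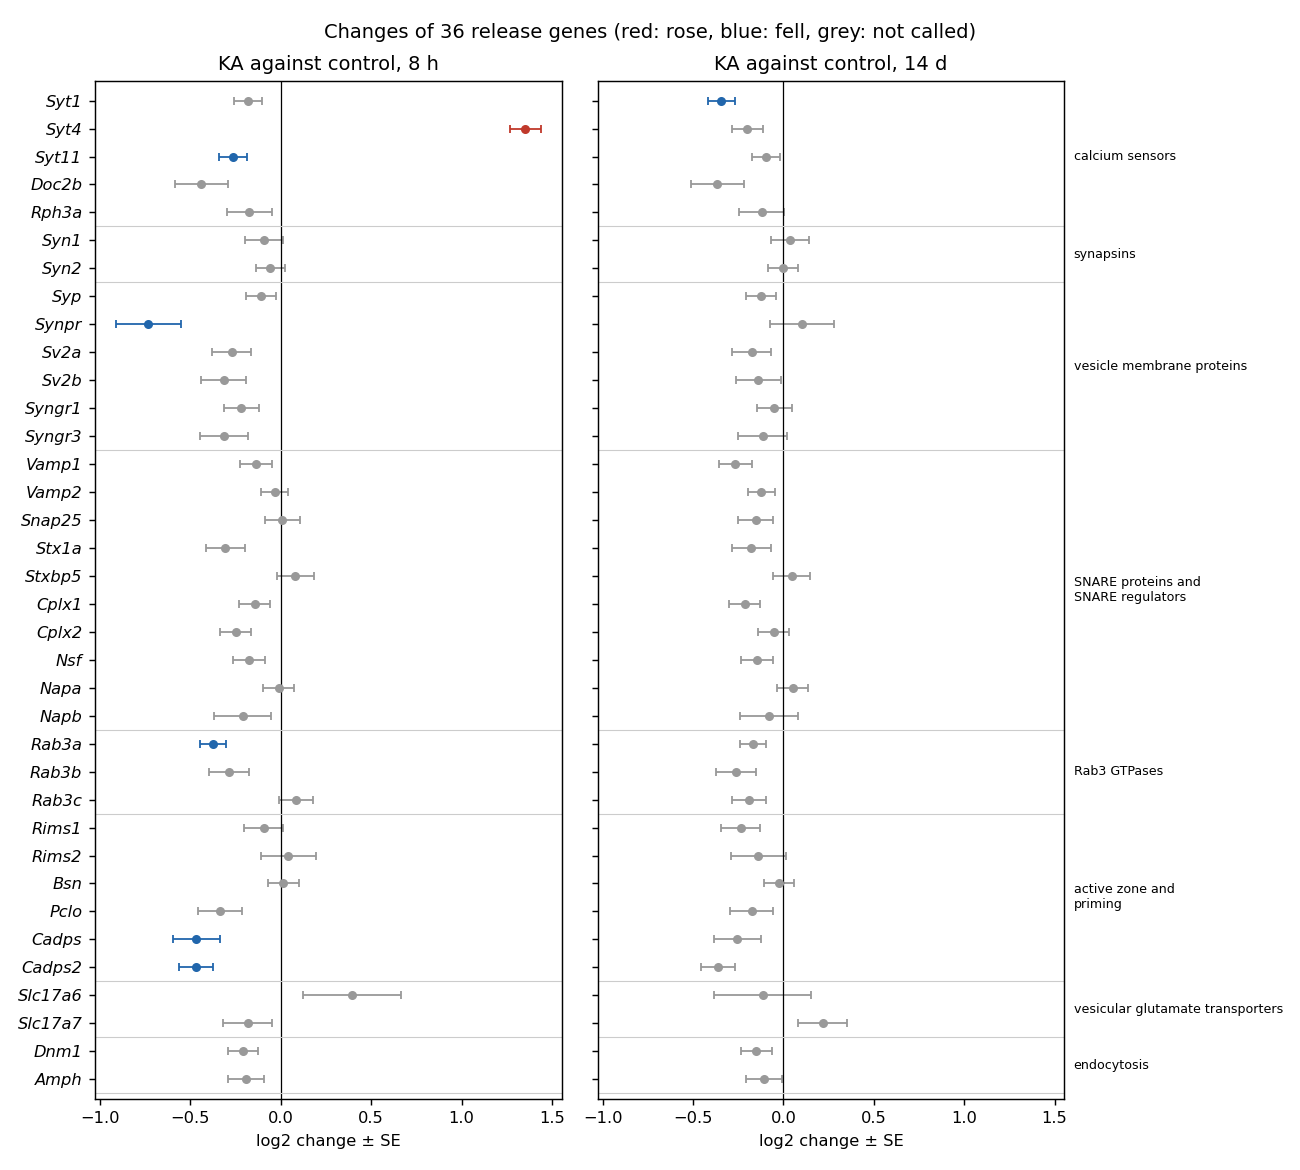
Log2 change ± SE from limma (x axis, shared scale) of KA against control at 8 h (left) and 14 d (right) for the 36 release genes (y axis, grouped by role), with red for a rise, blue for a fall and grey for genes not called. Most points lie left of 0 at both times, 29 of 36 at 8 h and 31 of 36 at 14 d, and Syt4 at 8 h is the one point past 1.

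The spread of small decreases can be read from the arrays without the test. At 8 h, 15 of the 36 genes had all KA arrays below all controls, 41.7%, where 18.9% of all genes did, and 2 had all KA arrays above, where 14.8% of all genes did. Taken array by array, 30 of the 36 genes lay below all controls on KA replicate 1, 23 on replicate 2 and 19 on replicate 3. The corresponding shares of all genes were 39.7%, 31.9% and 39.4%. The 30 genes that were not called had log2 changes between -0.44 and 0.39. In a bulk tissue, fewer cells of a type and less RNA per cell cannot be told apart.

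With the replicate number as a block (a pairing that the labels do not give and that rests on correlations between arrays), 13 of the 36 were called (1 rose and 12 fell), where 22.6% of all genes were. The 7 added were Doc2b, Pclo, Sv2b, Syngr3, Stx1a, Sv2a and Cplx2, at adjusted p-values from 0.0166 (Pclo) to 0.0321 (Cplx2). Their log2 changes were those given above, and 1 of the 3 Pclo probe sets had the opposite sign. Other probe sets gave -0.32 and -0.02 for Cplx2, -0.06 for Syngr3, -0.17 for Doc2b and -0.32 for Sv2b. Stx1a and Sv2a had 1 probe set each. Without KA 14 d replicate 3, which enters only through the shared estimate of spread, 10 release genes were called at 8 h, and 2723 of all 13867 genes.

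Markers of cell types are given here as measured facts beside these decreases. Of 10 neuronal markers, 3 fell at 8 h (Tubb3 by 0.52, Rbfox3 by 0.37 and Thy1 by 0.27 on the log2 scale) and none rose. By sign, 5 of the 10 were below 0 and 5 above, with a median log2 change of 0.02 and a highest of 0.35. Of 7 granule cell markers tested, C1ql2 and Pdzd2 rose while Calb1 and Dsp fell, Dsp with a log2 change of -1.97, and their summed level was 10.5 to 10.9 on the KA arrays and 10.7 to 10.9 on the controls. Of 11 interneuron markers, 2 rose and 3 fell, with summed levels of 11.88 to 12.08 against 11.75 to 11.88. None of 5 choroid plexus markers was called, but their summed level was 9.79 on KA replicate 3, against 12.0 and 12.3 on the other two KA arrays and 12.0 to 12.3 on the controls. Summed levels did not overlap for 3 further lists. Astrocyte markers (2 of 8 rose) summed to 12.8 to 12.9 on the KA arrays and 12.5 to 12.6 on the controls, CA3 markers (1 of 3 tested rose) to 9.92 to 10.3 against 9.47 to 9.61, and endothelial markers (1 of 5 rose and 1 fell) to 8.93 to 9.00 against 8.60 to 8.70. A sum can rest on few genes. The CA3 log2 changes had a median of 0.04 and a highest of 0.74. Of the 8 astrocyte changes, 4 were below 0 and 4 above (median 0.10), and the endothelial median was 0.22. Microglia markers (1 of 8 rose and 3 fell), oligodendrocyte markers (2 of 6 fell) and cortex and amygdala markers (2 of 4 tested rose and 1 fell) had summed levels that overlapped the controls. Except for Iyd and Cpne4 of the CA3 list and Rspo1 of the cortex and amygdala list, all markers measured in these 10 lists were above background on some array. Their part in the changes of the release genes was not tested.

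Of the 74 further genes of release and recycling examined, 58 were tested, and 3 rose and 15 fell at 8 h. That is 31.0% called, where 17.5% of all genes were (7.91% rose and 9.55% fell). The median log2 change of the 58 was -0.08, against -0.02 for all genes. The rises were Cltb, a clathrin light chain (0.67 ± 0.09, 1.59-fold, adjusted p = 7.33e-05), Stx4a, a syntaxin of general plasma membrane fusion (0.37 ± 0.09, adjusted p = 0.00891), and Rimbp2, a RIM-binding scaffold (0.54 ± 0.15, adjusted p = 0.0182). The Rimbp2 call was lost when control 8 h replicate 1 (adjusted p = 0.0590) or 2 (0.0859) or KA 8 h replicate 3 (0.0797) was left out. The deepest fall was that of Stxbp6, amisyn, an inhibitor of SNARE assembly (-0.88 ± 0.12, 1.84-fold, adjusted p = 0.000124). Ppfia4, a liprin of the presynaptic scaffold, had a log2 change of -0.65 (adjusted p = 0.000116). Prrt2, a presynaptic protein mutated in paroxysmal movement disorders and infantile seizures, had one of -0.60 (adjusted p = 0.00108). Syt3, a further synaptotagmin, changed by -0.52 (adjusted p = 0.00385) and Sncb, beta-synuclein, by -0.47 (adjusted p = 0.00314). The other 10 that fell were Snapin, Sh3gl3, Rab27b, Sh3gl2, Dnm3, Scamp1, Snap47, Syt7, Syt17 and Synj1. Without control 8 h replicate 3, or without KA 8 h replicate 1, 10 of the 58 were called. Of all 13867 genes, 1660 and 1785 were called in those fits.

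**Figure D3:**
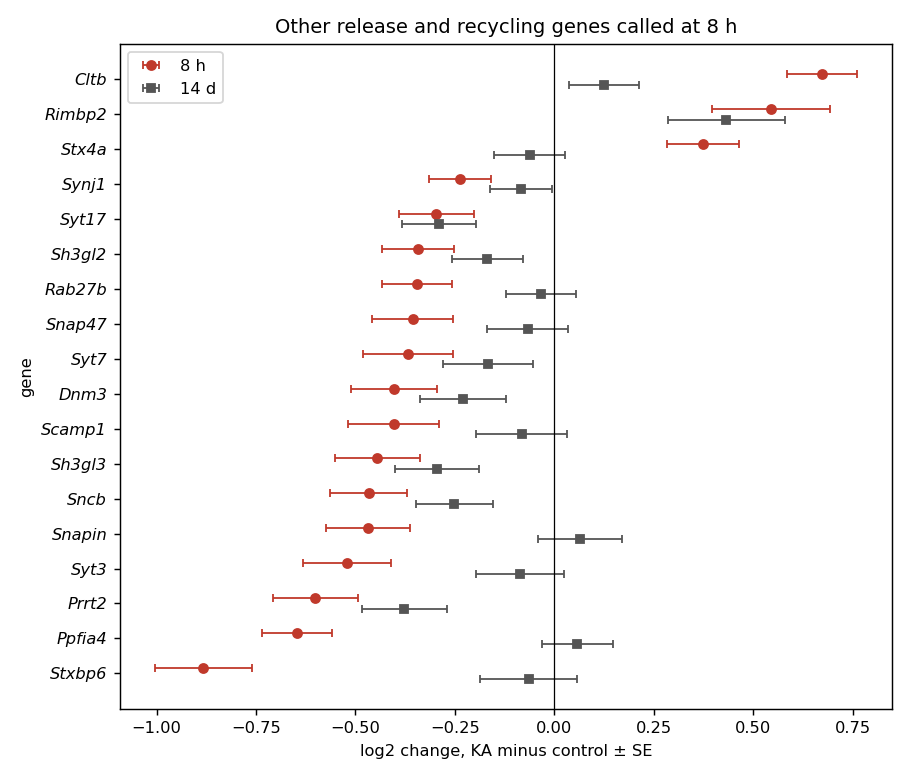
Log2 change ± SE from limma (x axis) of KA against control for the 18 further release and recycling genes (y axis) called at 8 h, with red circles for 8 h and grey squares for 14 d. At 8 h, 3 lie right of 0 and 15 left of 0, and none of the 18 was called at 14 d.

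Promoter sequence is shown for the 5 genes that fell at 8 h, for Syt1, which fell at 14 d, and for Syn1, the one gene of the 32 with a promoter in the RefSeq table that had a full CREB site in this window. Each run is the 250 bases before the transcription start in RefSeq on GRCm38.p6, 5′ to 3′ on the gene's strand, and capitals mark matches to the motifs searched.
Rab3a (chr8:70754453-70754702, plus strand): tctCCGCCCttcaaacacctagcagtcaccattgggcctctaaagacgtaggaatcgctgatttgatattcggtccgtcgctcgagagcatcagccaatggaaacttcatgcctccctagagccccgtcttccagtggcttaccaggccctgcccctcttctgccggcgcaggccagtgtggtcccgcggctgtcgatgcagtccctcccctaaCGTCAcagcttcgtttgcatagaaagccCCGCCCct
Cadps (chr14:12823080-12823329, minus strand): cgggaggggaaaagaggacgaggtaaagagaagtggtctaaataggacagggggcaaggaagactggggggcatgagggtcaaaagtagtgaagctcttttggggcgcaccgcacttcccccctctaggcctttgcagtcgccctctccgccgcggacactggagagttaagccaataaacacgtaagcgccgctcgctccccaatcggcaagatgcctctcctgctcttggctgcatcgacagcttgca
Cadps2 (chr6:23839422-23839671, minus strand): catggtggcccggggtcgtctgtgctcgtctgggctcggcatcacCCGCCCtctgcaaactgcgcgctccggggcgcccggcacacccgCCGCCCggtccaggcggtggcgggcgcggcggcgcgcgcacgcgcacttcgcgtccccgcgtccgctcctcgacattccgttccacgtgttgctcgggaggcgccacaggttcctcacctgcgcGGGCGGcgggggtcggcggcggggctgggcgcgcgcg
Synpr (chr14:13284530-13284779, plus strand): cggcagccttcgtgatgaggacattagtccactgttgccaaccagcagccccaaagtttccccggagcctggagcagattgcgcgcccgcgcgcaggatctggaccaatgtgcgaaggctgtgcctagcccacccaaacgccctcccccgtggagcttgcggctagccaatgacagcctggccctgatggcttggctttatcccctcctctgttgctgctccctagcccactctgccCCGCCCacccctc
Syt11 (chr3:88772600-88772849, minus strand): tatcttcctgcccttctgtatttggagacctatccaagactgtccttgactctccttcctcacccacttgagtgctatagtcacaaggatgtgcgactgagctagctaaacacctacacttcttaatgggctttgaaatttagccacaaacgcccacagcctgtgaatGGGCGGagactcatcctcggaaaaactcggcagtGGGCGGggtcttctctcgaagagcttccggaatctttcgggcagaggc
Syt1 (chr10:109010976-109011225, minus strand): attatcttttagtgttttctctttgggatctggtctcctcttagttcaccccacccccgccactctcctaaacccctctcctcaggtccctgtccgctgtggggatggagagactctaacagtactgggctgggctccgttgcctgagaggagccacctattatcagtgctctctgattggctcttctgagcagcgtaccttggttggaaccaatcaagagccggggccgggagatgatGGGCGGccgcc
Syn1 (chrX:20920919-20921168, minus strand): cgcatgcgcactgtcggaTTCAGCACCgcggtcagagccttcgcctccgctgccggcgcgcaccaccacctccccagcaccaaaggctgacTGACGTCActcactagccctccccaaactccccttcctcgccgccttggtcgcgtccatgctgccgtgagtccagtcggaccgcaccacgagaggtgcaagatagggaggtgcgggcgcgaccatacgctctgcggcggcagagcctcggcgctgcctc
The capitals in Syn1 are the CREB site (CRE) TGACGTCA and the letters TTCAGCACC of the left arm of RE1, the element bound by the neuronal repressor REST. In Rab3a they include the short CRE core TGACG, read on the other strand, and elsewhere they are the GC box GGGCGG bound by Sp1, read on either strand. No motif searched was in the Cadps window.

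The RefSeq table held a promoter for 32 of the 38 genes, Sv2c and Unc13a among them. Entries for Syngr3, Syt4, Snap25, Doc2b, Rims2 and Vamp2 were not used here. On either strand, the GC box was in 22 of the 32 windows (68.8%) and in 32.7% of all 32851 promoters of that length. The median GC content of the 32 was 61.2%, against 52.4% for all promoters. The CRE was in 1 of the 32, against 1.55% of all promoters. The short core TGACG, which also counts each full CRE, was in 6 (Syn1, Stx1a, Rab3a, Rab3b, Unc13a and Napa), 18.8% against 17.8%. The AP-1 motif TGANTCA, bound by Fos and Jun, was in the Rph3a window alone, against 6.75% of all promoters. The left arm of RE1 was in 1 (0.301% of all promoters), its right arm GGACAGC in none (5.28%), and the TATA box TATAAA in 2, Sv2b and Rab3b (12.4%). Of the 5 genes that fell at 8 h, 4 held a GC box and Rab3a the short CRE core, and a match is a description of the sequence only.

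At 14 d after KA, 1 release gene was called, Syt1, which fell 1.27-fold. It read 10.82, 10.83 and 10.87 on the 14 d controls and 10.57, 10.42 and 10.51 on the KA arrays. All KA arrays lay below all controls, and the controls spanned less than 0.05 log2 units. The log2 change was -0.34 ± 0.08 (adjusted p = 0.0213), and all 3 Syt1 probe sets had the same sign. The call was lost without control replicate 1 (adjusted p = 0.0699), 2 (0.0881) or 3 (0.0952) and without KA replicate 2 (0.0538), with log2 changes of -0.35, -0.35, -0.33 and -0.30. Of all genes, 2.55% were called at 14 d (1.98% rose and 0.57% fell), and 1 of 36 is 2.78%, near that background.

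Of the release genes not called at 14 d, Cadps2 alone lay near the threshold. It read 9.76, 9.80 and 9.81 on the controls and 9.39, 9.35 and 9.54 on the KA arrays. The groups did not overlap, and the log2 change of -0.36 ± 0.09 just missed the threshold (adjusted p = 0.0559). It passed without KA 14 d replicate 3 (-0.42, adjusted p = 0.0358), when 2 release genes and 405 of all 13867 genes were called. The count was also 2 without KA 8 h replicate 2 or 3, when 363 and 384 of all genes were called. Doc2b read 6.32, 6.26 and 6.85 against 5.99, 6.04 and 6.30 (-0.37 ± 0.15, adjusted p = 0.281). Vamp1, a vesicle SNARE, was the lowest of the SNARE group, reading 8.86, 8.88 and 9.14 against 8.74, 8.64 and 8.71 (-0.27 ± 0.09, adjusted p = 0.174). Rab3a read 9.94, 9.90 and 9.96 against 9.83, 9.70 and 9.77 (-0.17 ± 0.07, adjusted p = 0.339), and Cadps 7.19, 7.44 and 7.57 against 7.15, 6.88 and 7.40 (-0.26 ± 0.13, adjusted p = 0.455). Rab3a did not overlap with its controls and Cadps did.

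On the probe sets used, Slc17a7 had the highest log2 change of the 36 at 14 d, 0.22 ± 0.13, which did not pass (adjusted p = 0.576). It read 9.43, 9.42 and 9.59 on the controls and 9.80, 9.30 and 9.98 on the KA arrays, so that replicate 2 was below and the other two above all controls. Without KA 14 d replicate 2 the change was 0.41 (adjusted p = 0.0356). Synpr was also below all controls on KA replicate 2, with 7.38, 7.49 and 7.69 on the controls and 7.67, 7.14 and 8.05 on the KA arrays (0.10 ± 0.18, adjusted p = 0.891). Of its KA arrays, replicate 3 alone lay above all controls. The synapsins had log2 changes of 0.04 (Syn1) and -0.00 (Syn2) at 14 d. Napa had one of 0.05 on the probe set used and 0.39 on its dimmer one. The dimmer one did not pass in limma where all probe sets were tested (adjusted p = 0.257).

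The 36 genes had a median log2 change of -0.14 at 14 d, against -0.01 for all genes, and a range of -0.37 to 0.22. In 11 of them, 30.6%, all KA arrays lay below all controls, where 8.49% of all genes did, and in none did all lie above, where 8.02% of all genes did. The 3 KA arrays differed in this. On replicate 2, 33 of the 36 genes lay below all controls, on replicate 1 21 and on replicate 3 13, where 39.7%, 28.4% and 29.6% of all genes did. The summed level of the 10 neuronal markers was also lowest on replicate 2, 12.86 against 13.20 and 13.24 on the other two and 13.10 to 13.14 on the controls. None of those 10 markers was called at 14 d. Their part in the lower values of replicate 2 was not tested.

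**Figure D4:**
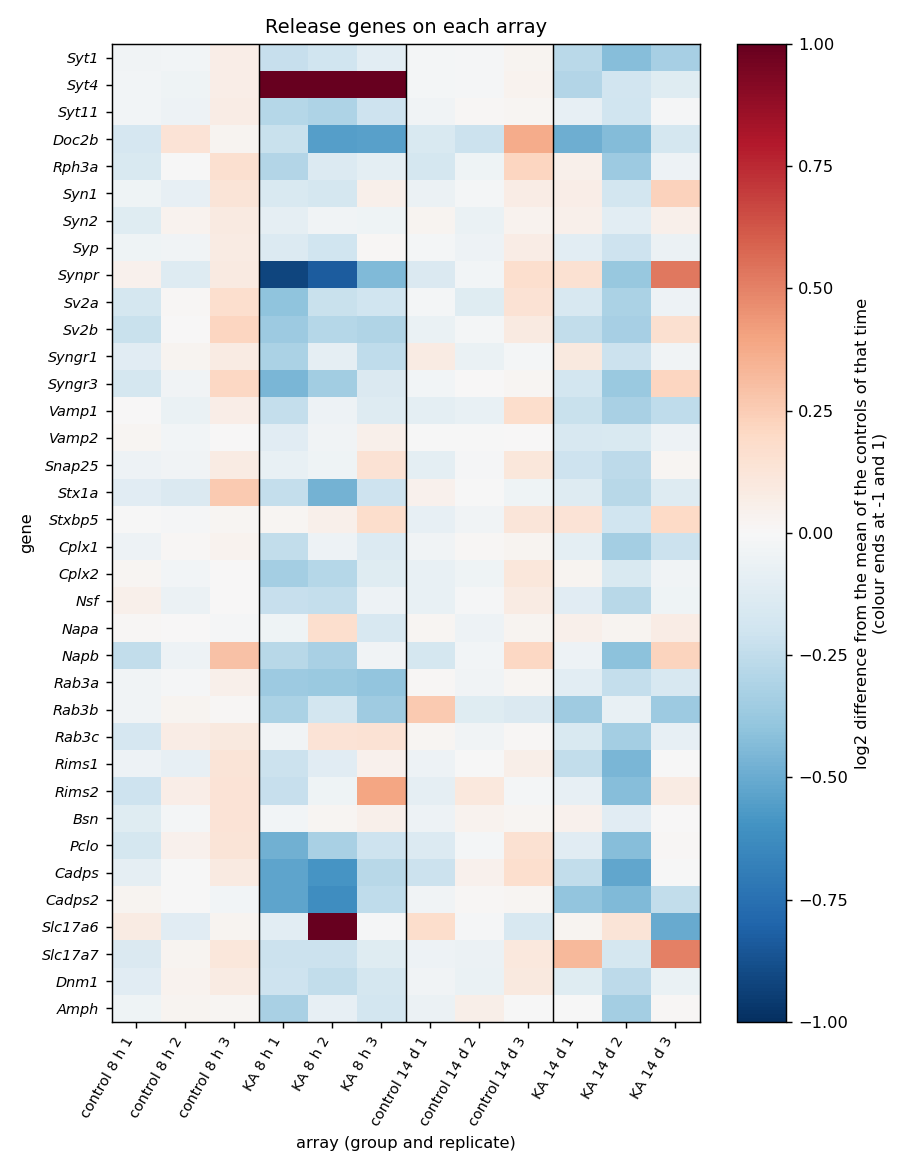
Log2 difference of each of the 36 release genes (y axis) on each of the 12 arrays (x axis, group and replicate) from the mean of the controls of the same time, with red for higher and blue for lower and colours ending at -1 and 1. On KA 14 d replicate 2, 33 of 36 genes lie below all controls of that time, and Syt4 stands out as red on the 3 KA 8 h arrays.

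Markers of glia and of several neuron types also moved at 14 d. Of 8 microglia markers 7 rose, with a summed level of 10.9 to 11.1 on the KA arrays and 9.78 to 9.87 on the controls, and of 8 astrocyte markers 4 rose, with 13.15 to 13.42 against 12.67 to 12.78. Of 4 CA1 pyramidal markers tested, Fibcd1 fell, and the summed level was 10.1 to 10.3 on the KA arrays and 10.4 on each control. Cortex and amygdala markers (Lamp5 fell, 1 of 4 tested) summed to 8.83 to 8.89 against 9.15 to 9.35, and mossy cell markers (none of 4 tested called) to 8.83 to 9.08 against 8.54 to 8.71. Of 7 granule cell markers, C1ql2 and Pdzd2 rose and Dsp fell, with summed levels of 10.2 to 10.6 against 10.3 to 10.6. Of 11 interneuron markers, Npy rose and Pvalb fell, with 11.8 to 12.3 against 11.9. Except for Rspo1 (cortex and amygdala), Drd2 and Calcrl (mossy cell), all markers measured in these 7 lists were above background on some array. Their part in the values of the release genes was not tested.

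None of the 58 further release and recycling genes was called at 14 d in limma, where 2.55% of all genes were. In 8 of the 58 (13.8%) all KA arrays lay below all controls, where 8.49% of all genes did. In 0 of them did all lie above, where 8.02% of all genes did. The lowest adjusted p was that of Prrt2 (0.0852, log2 change -0.38), and the median log2 change was -0.03. Without KA 14 d replicate 2, 3 were called, and 457 of all 13867 genes. Without KA 14 d replicate 3, 2 were called, and 405 of all genes.

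The change at 14 d differed from that at 8 h for 1 release gene, Syt4, by a test of the difference itself. Its log2 change went from 1.35 at 8 h to -0.20 at 14 d, a difference of -1.55 ± 0.12 (adjusted p = 1.85e-06). At 14 d Syt4 read 8.41, 8.42 and 8.46 on the controls and 8.14, 8.24 and 8.31 on the KA arrays. The KA arrays were then all below the controls, though the 14 d change alone did not pass (adjusted p = 0.329). On the probe sets used, Synpr, from -0.73 to 0.10, was the next by p. Its difference of 0.83 ± 0.25 did not pass (adjusted p = 0.0712). A dimmer Rims2 probe set went from 0.27 to -0.27. That difference of -0.54 did not pass where all probe sets were tested (adjusted p = 0.0560). With the replicate number as a block Synpr passed (0.83, adjusted p = 0.00605), where 1214 of all 13867 genes were called. It also passed without KA 14 d replicate 2 (1.07, adjusted p = 0.00494), as did Slc17a7 (0.60, adjusted p = 0.0158). In that fit 3 release genes and 902 of all genes were called. Without KA 8 h replicate 3, 2 were called, and 635 of all genes. Of all genes, 5.51% were called for this difference (2.45% upward and 3.06% downward), against 1 of 36 here. The comparison at 8 h and that at 14 d had separate controls, and the 5 genes that fell at 8 h had log2 changes at 14 d of 0.10 (Synpr), -0.26 (Cadps), -0.36 (Cadps2), -0.17 (Rab3a) and -0.10 (Syt11).

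Between the control groups, 14 d against 8 h, none of the 36 was called in limma, where 1.8% of all genes were (1.12% higher and 0.678% lower at 14 d). Without KA, groups also separated. Of the 36 genes, 10 had all 14 d controls above all 8 h controls and 2 had all below. Of all 13867 genes, 2126 lay above and 1352 below in this way, 25.1% together. Doc2b was nearest, with 5.78, 6.08 and 5.97 at 8 h and 6.32, 6.26 and 6.85 at 14 d (0.54 ± 0.15, adjusted p = 0.0784), and it passed without KA 14 d replicate 3 (adjusted p = 0.0484). Synpr had a log2 difference below 0 between the controls (-0.41 ± 0.18, adjusted p = 0.301) and did not pass either. Arc, which is not among the 36, was called, with 5.50 to 6.04 on the 8 h controls and 7.47 to 7.69 on the 14 d controls (log2 difference 1.82).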

How the data were processed

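RNA from the mouse hippocampus was measured on 12 Affymetrix Mouse MG-430 PM arrays. Per the labels, 5 ng of RNA went into 22 cycles of amplification, and 8 µg of the cDNA was fragmented and labelled. The deposited values are log2 intensities, and the submitters' processing notes name RMA and affy with no version. Their scale is not stated, and the range of 2.63 to 13.2 is that of RMA output. Of 45141 probe sets, 104 were controls, 28898 carried 1 symbol, 551 several and 15588 none in the platform annotation used, which can be old.

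Genes above the 30th percentile of the array on at least 3 arrays were kept, 13867 of 17097. One model in limma 3.58.1 (R 4.3.3, lmFit and eBayes) held all 12 arrays and the 4 group means, leaving 8 residual degrees of freedom. Tests were two-sided, with Benjamini-Hochberg adjustment over all genes tested. Background was the mean of 9 nonspecific probe sets with 17 to 25 G or C bases. A summed level is log2 of the summed linear intensities of a list. Simulated data of this design were used to test the fit. With 3 arrays per group, their number limits the precision.

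The members and lists were chosen with earlier results of these data known. Members called in any comparison were given array by array, with the lowest p of each role that had no call, and of the further release genes up to 5 rises and 5 falls by adjusted p. Other members were named after their values were seen.

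Groups share replicate numbers, which the labels do not tie to a shared animal or batch. Deviations of same-numbered arrays from their group means correlated at 0.155, 0.138 and 0.413 at 8 h, all over the bound of 0.1. This singles out the third arrays only. Control replicate 1 correlated at 0.163 with KA replicate 2, and control replicate 2 at 0.138 with KA replicate 1, as closely as with their own number. At 14 d same-numbered arrays correlated at 0.164, 0.0688 and 0.463, with 0.0688 under the bound. The main fit left the arrays unpaired at both times. The replicate number entered as a block only in an alternative, over all 12 arrays. Alternatives covered the block, the filter, the probe set, normalization, the arrays and spread model in the fit, array weights, X and Y genes, the threshold, and each array left out.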

Additional observations from a re-analysis of the deposited data

Results flagged for a closer look

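The change after KA differed between 8 h and 14 d for 6 release and recycling genes by the interaction test in limma. They were 1 of the 36 release genes (2.78%) and 5 of the 58 further genes (8.62%), where 5.51% of all genes were called. Syt4 differed most, by -1.55 (log2), with 1.35 at 8 h and -0.20 at 14 d. Cltb, a clathrin light chain, differed by -0.55 (adjusted p = 0.0156), from 0.67 to 0.12. In the other direction, Stxbp6 differed by 0.82 (adjusted p = 0.0102), from -0.88 to -0.06, and Ppfia4 by 0.70 (adjusted p = 0.00300), from -0.65 to 0.06. Syn3, a synapsin that is not among the 38 genes, differed by 0.67 (adjusted p = 0.0377), from -0.23 to 0.44, with neither change called alone. Snapin, a SNAP-25 binding protein, differed by 0.53 (adjusted p = 0.0494), from -0.47 to 0.07, and by 0.16 with the mean of all its probe sets.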

How the results depend on the processing

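Of the single genes, Syt4, Rab3a and Cadps2 kept their 8 h calls under all 26 alternatives, Syt4 between 1.28 and 1.41 (log2), and no single-gene result changed direction. Release genes called at 8 h, 6 in the report, numbered 13 with the replicate number as a block, 14 with array weights (23.7% of all genes called) and 4 to 10 with 1 array left out. At 14 d, where 1 was called, the replicate block gave 2 (Cadps2 added, adjusted p = 0.0207), the mean of all probe sets 2, an intensity trend with robust spread 2, array weights 7 (15.1% of all genes called), only the groups compared 0, an adjusted p under 0.01 0, and leaving out 1 array 0 to 2. For the difference of changes, where 1 was called, the replicate block gave 2 (Synpr added, adjusted p = 0.00605), cyclic loess 2, array weights 5 (15.6% of all genes called), leaving out the third array of each group 2, and leaving out 1 array 1 to 3. Between controls, where none was called, the replicate block gave 1 (Doc2b, adjusted p = 0.0337), only the groups compared 1, array weights 4 (9.63% of all genes called), the third arrays left out 1, and 1 array left out 0 to 1. Of the 58 further genes, 18 at 8 h became 9 at an adjusted p under 0.01 and 10 to 22 with 1 array left out, while 0 at 14 d became 4 with the replicate block, 2 with cyclic loess, 11 with array weights, 1 without the third arrays and 0 to 3 with 1 array left out. Over all genes the replicate block called 3135 at 8 h, 599 at 14 d and 1214 for the difference, where 2421, 354 and 764 were called without it. Leaving out 1 array called 1660 to 2749 of all genes at 8 h and 196 to 457 at 14 d. It called 508 to 902 for the difference and 86 to 421 between controls. Without the third arrays the all-gene calls were 299 at 14 d, 594 for the difference and 230 between controls. Cyclic loess gave 466 at 14 d and 941 for the difference. At 14 d the intensity trend gave 374, the mean of all probe sets 360 and only the groups compared 245. Between controls the replicate block called 570 of all genes and only the groups compared 543. All-gene calls at an adjusted p under 0.01 are not given here. The estimation of array weights stopped before it converged. Syt11 and Syt1 each lost their call in 7 of 26 alternatives, at adjusted p-values up to 0.120 and 0.102. Cadps had no value without x_at and s_at probe sets. The Dnm1 change at 8 h passed with the mean of all probe sets (-0.25, adjusted p = 0.0272) and with array weights, and that of Slc17a7 at 14 d with array weights (0.33, adjusted p = 0.00908). Syn3 lost its difference in 10 of 25 alternatives and Snapin in 14. The causes were not tested.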
